A study of Mus musculus with 4 samples.

Results

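Among cells sorted as endothelium from the ears of neonatal mice, 223 of 3750 kept cells passed a threshold on mRNA of pericyte genes. These cells were 88 of the 1500 in library 1 (5.87%, 95% Clopper-Pearson interval, which is exact, of 4.73 to 7.18%) and 135 of 2250 in library 2 (6.00%, 5.05 to 7.06%). They were chosen by a sum of at least 5 unique molecular identifiers (UMIs, single counted mRNA molecules) over Pdgfrb, Kcnj8 and Ndufa4l2 and are called gate cells here. The choice rests on measured values, so the levels of these 3 genes are given as a description only. Gate cells were set against 1302 and 1989 endothelial reference cells of the same libraries, which had at least 1 UMI of Cdh5 and none of the 3 gate genes. The remaining 110 and 126 kept cells were in neither class. Among them, 63 and 61 had a sum of 1 or 2 UMIs over the gate genes, and 7 and 3 a sum of 3 or 4. Within the gate, 75 of 88 cells (85.2%, 76.1 to 91.9%) and 105 of 135 cells (77.8%, 69.8 to 84.5%) also held a UMI of Pecam1 or Cdh5, the genes of CD31 and VE-cadherin. The other 13 and 30 gate cells held neither.

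All cells came from C57BL/6 pups at postnatal day 8 that carried the Cdh5CreERT2 driver, which is active in endothelial cells, and a red reporter called Rtom in the labels. Cells were enriched for CD31, stained with antibodies that carry oligonucleotide tags, sorted alive for CD31 and for the reporter, and loaded for single-cell sequencing. Both libraries are biological replicates per the labels, the labels do not say how many pups each pooled or how the reporter was induced, and all comparisons are between cell classes within a library. The mRNA libraries held 1745 and 2877 barcodes with 15989249 and 26675353 UMIs, and 3 barcodes occurred in both, none of them in either gate. No doublet caller was run and no correction for free RNA was made. In summed counts, fewer cells with an mRNA and less of it per cell cannot be told apart.

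Pericytes are mural cells that sit within the basement membrane of capillaries and small venules, in direct contact with endothelial cells. They are recruited by endothelial PDGF-B through the receptor PDGFRB, respond to Notch ligands through NOTCH3, and adjust vessel tone through ATP-sensitive potassium channels and guanylate cyclase. Vascular smooth muscle cells are their relatives on arterioles and larger vessels and carry more of the contractile proteins.

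Kcnj8, which encodes the pore subunit Kir6.1 of the vascular ATP-sensitive potassium channel, reached 598 and 638 UMIs per 1e+06 UMIs of the class (CPM) in the gate cells of libraries 1 and 2. Pdgfrb, the PDGF-B receptor, reached 349 and 387 CPM. Ndufa4l2, a paralogue of the respiratory-chain protein gene Ndufa4, reached 702 and 719 CPM. By construction the reference had 0 UMIs of each. The sum over the 3 genes ran from 5 to 57 UMIs per gate cell, with medians of 20.5 and 21. Near the threshold, 4 and 3 gate cells had a sum of 5 or 6, with 1349 and 2270 CPM of Rgs5, and 7 and 3 cells outside the gate had a sum of 3 or 4, with 3358 and 194 CPM of Rgs5. The few cells just outside the gate in library 1 thus carried more Rgs5 per UMI than those just inside it. Gate cells without Pecam1 and Cdh5 held 1596 and 1412 CPM of Kcnj8, against 521 and 543 CPM in those with either gene.

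Markers that took no part in the gate were then tested. Rgs5, a regulator of G-protein signalling and a common pericyte marker, stood at 2913 and 2483 CPM in gate cells and at 7.46 and 4.44 CPM in the reference. Both gate values lay far above both reference values, with a log2 change of 8.88 (SE 0.09, edgeR adjusted p = 2.11e-22). Dlk1, an imprinted gene for a membrane protein related to Notch ligands, was at 614 and 779 CPM against 0.544 and 1.37 CPM (log2 change 9.42, SE 0.14, adjusted p = 4.76e-20). Acta2, smooth muscle actin, was at 761 and 571 CPM against 3.11 and 4.91 CPM (log2 change 7.29, SE 0.15, adjusted p = 3.18e-18). With every cell thinned to 3000 UMIs, Rgs5 was detected in 100 and 96.4% of gate cells without Pecam1 and Cdh5, in 96 and 97.1% of those with either, and in 1.49 and 1.23% of reference cells (4.92 and 3.22% without thinning). Acta2 was much less uniform than Rgs5: after thinning it was found in 15.4 and 39.3%, 33.3 and 26.9%, and 0.708 and 0.716% of the same classes.

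Of 12257 genes tested, 2956 passed (24.1%), with 1605 higher (13.1%) and 1351 lower (11.0%) in gate cells than in the reference. Of the 25 tested genes of the pericyte identity list, 24 were higher and 1 was lower. Genes near 0 in the reference passed the low-count filter only through their counts in the gate, so this count is a description. Only 12 and 14 listed genes held at least 20 UMIs in the reference of libraries 1 and 2. The list's median log2 change was 6.76, beside -0.00288 over all genes tested. Abcc9, which encodes the SUR2 subunit that pairs with Kir6.1, was at 291 and 347 CPM in gate cells and at 1.94 and 1.32 CPM in the reference (log2 change 7.69, adjusted p = 7.10e-19). Notch3, the Notch receptor of mural cells, was at 283 and 292 CPM against 0.388 and 0.472 CPM (log2 change 9.33, adjusted p = 1.63e-19). Vtn, the adhesion protein vitronectin, was at 265 and 164 CPM against 0.311 and 0.189 CPM. Higd1b, a hypoxia-inducible domain family gene and pericyte marker, was at 165 and 180 CPM against 0.388 and 0.189 CPM. Aspn, the small leucine-rich proteoglycan asporin, had the largest rise among well expressed genes, those whose average log2 CPM was 5 or more, from 0.233 and 0.236 CPM in the reference to 302 and 273 CPM (log2 change 10.17, SE 0.17). Mcam and Gja4 are in the list but are also endothelial genes, and rose by only 0.59 and 0.37 on the log2 scale. The transcription factor gene Foxc1 was the member that was lower (log2 change -0.98, adjusted p = 0.0117).

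**Figure D1:**
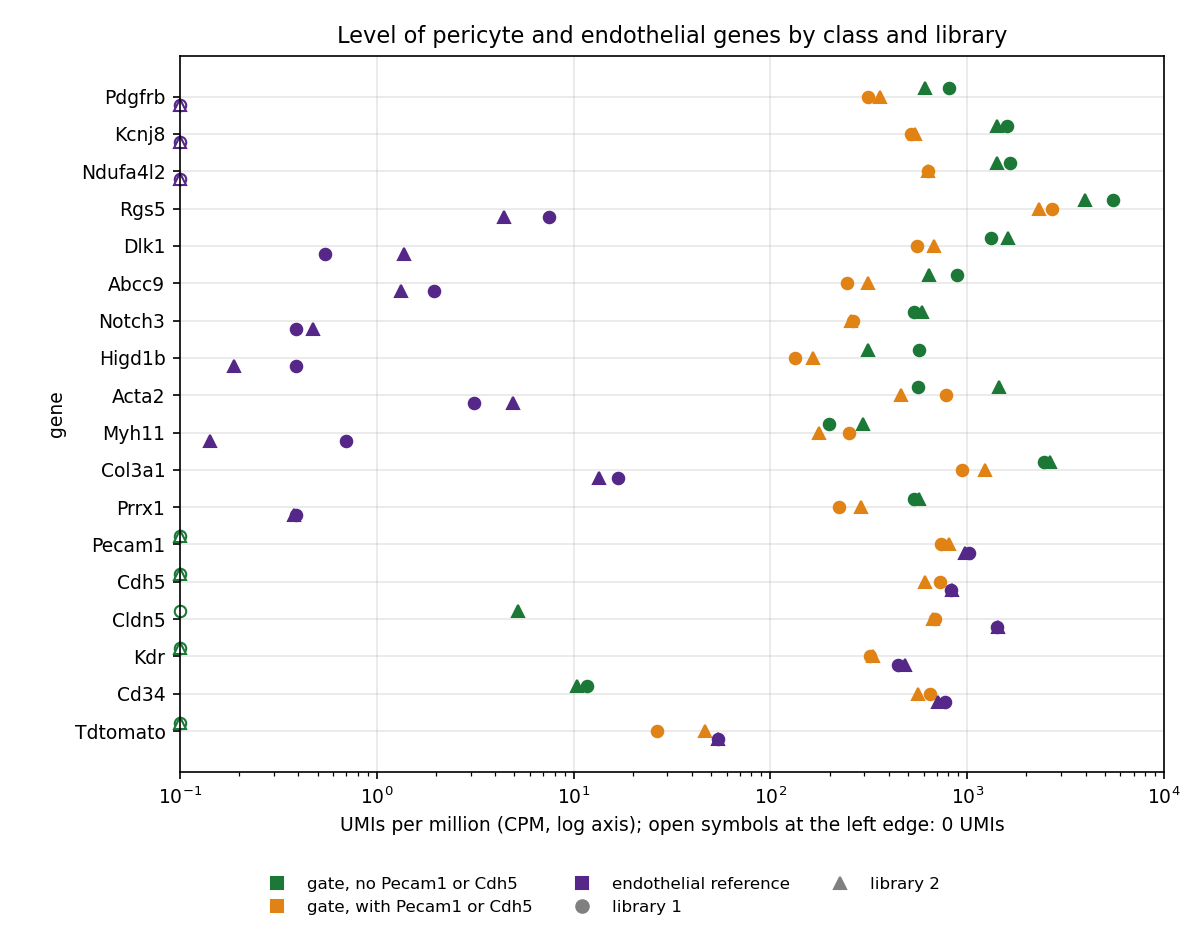
Level of 18 genes in CPM (log axis) in gate cells without Pecam1 and Cdh5 (green), gate cells with either (orange) and endothelial reference cells (purple); circles are library 1, triangles library 2, and open symbols at the left edge mark 0 UMIs. Rgs5 lies at 2303 to 5524 CPM in both gate classes and at 4.44 to 7.46 CPM in the reference, while Cldn5 and Kdr lie at or near 0 in gate cells without Pecam1 and Cdh5.

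Kcnj8 and Abcc9 lie side by side on chromosome 6, both on the minus strand, with 16247 bases between them (GRCm38 coordinates, GENCODE vM21). Kcnj8 spans chr6:142564837-142571614 and Abcc9 chr6:142587862-142702315. Because both subunit genes were high in the same cells, the bases before their RefSeq starts are shown. Those of Rgs5 and Notch3, markers on other chromosomes, stand beside them. Each run is 5′ to 3′ on the gene's strand, up to 250 bases long, from RefSeq on GRCm38.p6, and stops before any GENCODE exon, which shortens that of Abcc9 to 209 bases. Capitals mark matches on either strand to CATTCC (the MCAT element of muscle genes) or to TGGGAA (the core bound by RBPJ downstream of Notch).
Kcnj8, chr6:142571615-142571864, minus strand: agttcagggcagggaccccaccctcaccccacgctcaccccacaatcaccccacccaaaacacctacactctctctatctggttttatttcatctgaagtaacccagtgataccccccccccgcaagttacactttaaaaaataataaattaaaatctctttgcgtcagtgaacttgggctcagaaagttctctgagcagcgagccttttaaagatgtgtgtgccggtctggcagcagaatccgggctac
Abcc9, chr6:142702316-142702524, minus strand: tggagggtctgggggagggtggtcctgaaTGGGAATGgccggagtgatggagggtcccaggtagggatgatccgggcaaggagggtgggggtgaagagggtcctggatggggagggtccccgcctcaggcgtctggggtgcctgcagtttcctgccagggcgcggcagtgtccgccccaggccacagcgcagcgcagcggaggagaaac
Rgs5, chr1:169655251-169655500, plus strand: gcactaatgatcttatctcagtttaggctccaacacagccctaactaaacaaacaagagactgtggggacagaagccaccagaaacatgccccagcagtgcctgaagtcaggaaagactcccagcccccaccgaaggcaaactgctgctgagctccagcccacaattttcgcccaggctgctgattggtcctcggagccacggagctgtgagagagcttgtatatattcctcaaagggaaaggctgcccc
Notch3, chr17:32166891-32167140, minus strand: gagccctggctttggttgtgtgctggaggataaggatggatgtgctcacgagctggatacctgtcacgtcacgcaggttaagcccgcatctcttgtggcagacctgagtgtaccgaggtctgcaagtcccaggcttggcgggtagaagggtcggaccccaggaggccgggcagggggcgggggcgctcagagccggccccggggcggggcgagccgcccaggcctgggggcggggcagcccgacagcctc
The only match among these 4 was at Abcc9, where TGGGAA and GGAATG overlap 221 to 214 bases before the start. The windows of Dlk1 and Acta2 were searched too and are not shown. That of Dlk1 held no match. That of Acta2 held GGAATG at 146 to 141 and TGGGAA at 27 to 22 bases before its RefSeq start, both within GENCODE exon bases. No window held the CArG box bound by serum response factor. Among 32851 RefSeq windows of 250 bases, 12.6% held CATTCC, 21.6% held TGGGAA and 1.47% held a CArG box, on either strand, so the letters at Abcc9 are common and a match is not a bound site.

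Genes for receptors and channels of vessel tone were high in the gate. Of 23 tested, 18 rose and 2 fell, with a median log2 change of 5.79, beside 13.1% and 11.0% of all genes tested. Members near 0 in the reference were tested only through the gate, so the count is a description. Gucy1a1, a subunit of the nitric oxide receptor guanylate cyclase, was at 441 and 349 CPM in gate cells and at 48.4 and 31.0 CPM in the reference (log2 change 3.35, SE 0.10, adjusted p = 5.14e-16). Ano1, a calcium-activated chloride channel, was at 86.9 and 77.9 CPM against 0.311 and 0.189 CPM. Ramp1, which pairs with the calcitonin receptor-like receptor, was at 120 and 132 CPM against 1.17 and 0.142 CPM. Ednra, the endothelin A receptor, held 88 and 133 UMIs in the gate cells and 0 and 2 UMIs in the many more reference cells. The genes that fell were Ednrb, the endothelin B receptor, and Calcrl, the partner of the RAMP proteins, both of which endothelial cells express (log2 changes -0.49 and -0.79).

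The contractile list was higher too, but with gaps. Of 17 genes tested, 14 rose and 1, Smtn, fell, beside 13.1% and 11.0% of all genes tested. The median log2 change was 2.97. Tpm2, a tropomyosin, was at 563 and 577 CPM in gate cells against 3.65 and 2.31 CPM in the reference (log2 change 7.65, SE 0.13, adjusted p = 1.98e-19). Des, the intermediate filament protein desmin, was at 367 and 414 CPM against 2.02 and 0.897 CPM. Myh11, smooth muscle myosin heavy chain, was at 247 and 190 CPM against 0.699 and 0.142 CPM. Cnn1 and Pln, calponin and phospholamban of mature smooth muscle, had 0 UMIs in the 223 gate cells.

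Acta2 was unevenly spread within the gate. It had 0 UMIs in 52 of 88 cells (59.1%) and 79 of 135 cells (58.5%), and at least 5 UMIs in 23 (26.1%) and 36 (26.7%), with maxima of 114 and 105. The split of the gate cells by Acta2 was chosen after its values were seen and is a description with no test. Myh11 was at 632 and 568 CPM in the cells with 5 or more Acta2 UMIs and at 49.0 and 37.3 CPM in those with 0. Tagln, transgelin, moved the same way (980 and 740 CPM against 55.3 and 39.2 CPM), as did Rgs5 (4567 and 3486 CPM against 2350 and 1945 CPM). Kcnj8 ran the other way, with 216 and 420 CPM against 840 and 748 CPM, and so did Abcc9, with 108 and 246 CPM against 408 and 384 CPM. Ndufa4l2 differed little between these cells (732 and 792 CPM against 701 and 627 CPM). Median depth was 15061 and 13370 UMIs in the cells with 5 or more Acta2 UMIs and 11017 and 11439 UMIs in those with 0, and the part of depth in this split was not tested. Des rose less than Myh11 and Tagln, from 314 and 357 CPM at 0 Acta2 UMIs to 392 and 488 CPM at 5 or more. It was highest, at 502 and 505 CPM, in the 13 and 20 cells with 1 to 4 Acta2 UMIs. Kcnj8 and Ndufa4l2 are also genes the gate selected on.

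**Figure D2:**
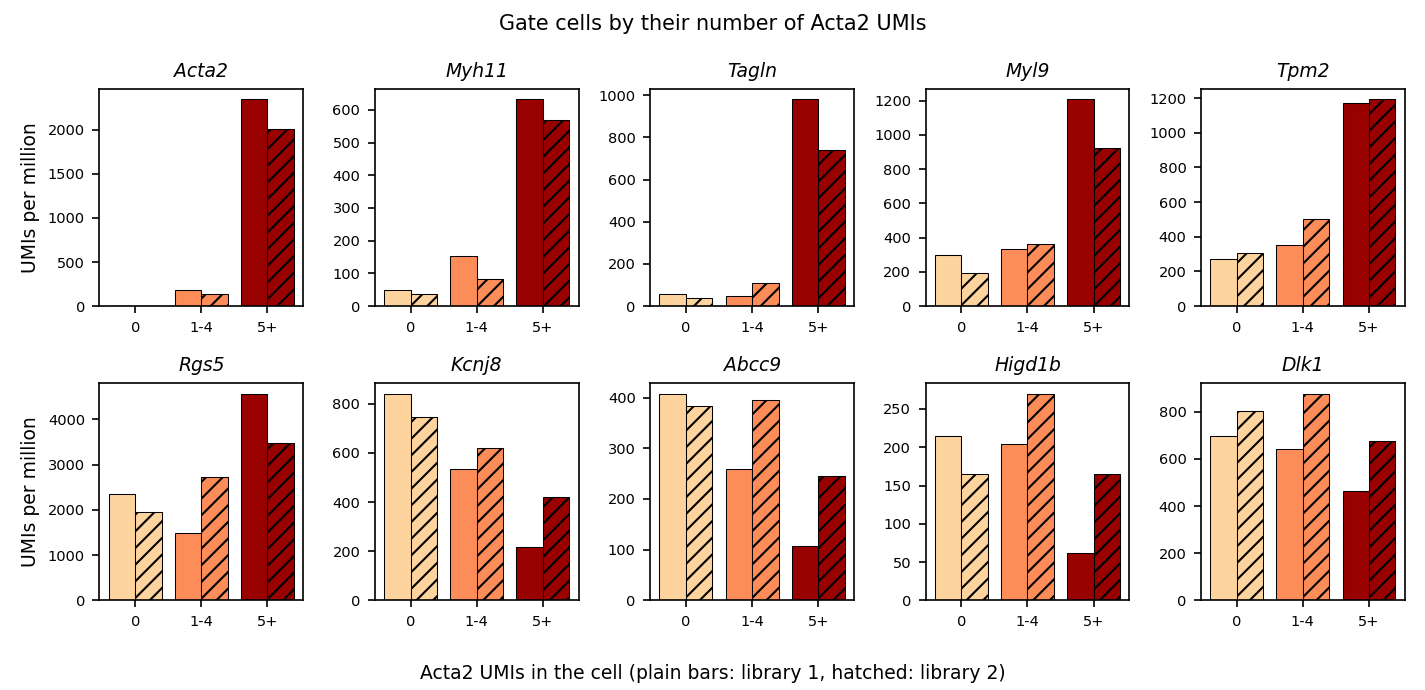
Levels of 10 genes in gate cells split by their own number of Acta2 UMIs (0, 1 to 4, 5 or more), in CPM on linear axes that start at 0; plain bars are library 1, hatched bars library 2, each bar 1 summed value with no error. Myh11 and Tagln are highest in the cells with 5 or more Acta2 UMIs, where Kcnj8 and Abcc9 are lowest.

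Genes of PDGF, Notch, angiopoietin and TGF-beta signalling moved in both directions. Of 38 tested, 11 rose and 10 fell (median log2 change 0.05), beside 13.1% and 11.0% of all genes tested. S1pr3, a sphingosine-1-phosphate receptor, was at 91.2 and 108 CPM in gate cells against 0.311 and 0.378 CPM in the reference (log2 change 8.13, adjusted p = 1.36e-15). Heyl, a Notch target gene of mural cells, was at 56.6 and 52.9 CPM against 0.388 and 0.0472 CPM. Nrip2, a nuclear receptor interacting protein gene placed in this list beside Notch3, was at 58.2 and 41.5 CPM against 0.388 and 0.331 CPM, although the gate cells without Pecam1 and Cdh5 in library 1 held none. Bmpr1a, a BMP receptor, was at 43.1 and 30.1 CPM against 0.699 and 0.803 CPM. Pdgfa, a PDGF ligand gene, was at 115 and 118 CPM against 40.6 and 26.5 CPM (log2 change 1.87, SE 0.14, adjusted p = 1.42e-09). The ligand gene Pdgfb fell over all gate cells (log2 change -0.34, adjusted p = 0.0118). Pdgfb was at 23.3 and 15.6 CPM in gate cells without Pecam1 and Cdh5, at 148 and 128 CPM in those with either, and at 165 and 158 CPM in the reference. Dll4, a Notch ligand of endothelial cells, fell over all gate cells (log2 change -0.50, adjusted p = 0.00185) and had 0 UMIs in the first of these classes in both libraries.

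Matrix genes were mostly higher: of 44 tested, 26 rose and 11 fell, beside 13.1% and 11.0% of all genes tested. Their median log2 change was 0.39. The collagen VI chains led. Col6a1 was at 393 and 549 CPM in gate cells against 1.09 and 0.803 CPM in the reference (log2 change 9.04, SE 0.15, adjusted p = 1.55e-19). Col6a2 was at 268 and 321 CPM against 0.311 and 0.283 CPM, and Col6a3 at 305 and 449 CPM against 0.777 and 1.04 CPM. Col4a1, a collagen IV chain of the basement membrane that both cell types make, was at 2521 and 2666 CPM against 1938 and 2029 CPM (log2 change 0.40, adjusted p = 2.29e-07). Lgals1, galectin-1, was at 1596 and 1624 CPM against 400 and 388 CPM. Eln, elastin, was lower in gate cells, at 132 and 85.3 CPM against 905 and 321 CPM (log2 change -2.35, SE 0.13, adjusted p = 1.42e-11).

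Several genes of the fibroblast list were high in the gate, and others had no UMIs. Only 9 of the 19 listed genes passed the low-count filter. Of these 6 rose and 1 fell, beside 13.1% and 11.0% of all genes tested. Members with few counts in both classes were not tested, and those near 0 in the reference were tested only through the gate. The count is therefore a description. Col3a1, a fibrillar collagen, was at 1047 and 1387 CPM in gate cells against 16.9 and 13.5 CPM in the reference (log2 change 6.36, SE 0.12, adjusted p = 7.73e-19). Col1a1 and Col1a2, the chains of collagen I, were at 100 and 194 CPM and at 391 and 522 CPM, against 0.311 and 0.709 CPM and 2.87 and 1.13 CPM (log2 changes 8.13 and 7.99). Prrx1, a mesenchymal transcription factor gene, was at 246 and 320 CPM against 0.388 and 0.378 CPM, and Twist1 at 155 and 172 CPM against 0.233 and 0.378 CPM. Pdgfra, the receptor that marks dermal fibroblasts, had 0 UMIs in all 223 gate cells, as did Clec3b, Mfap4, Crabp1 and Tcf21. In gate cells without Pecam1 and Cdh5, 11 of the 19 listed genes were at 0, and the summed level of the list was 3822 and 4506 CPM, against 1693 and 2268 CPM in the other gate cells and 173 and 114 CPM in the reference. Schwann cell markers were at 0 for all 14 listed genes in gate cells without Pecam1 and Cdh5, where 3 UMIs correspond to 35.0 and 15.6 CPM. In the other gate cells 9 of the 14 were at 0. The list summed to 35.5 and 31.3 CPM there and to 68.0 and 44.0 CPM in the reference, so depth limits what these zeros show. Ptprc, the gene of CD45, had 0 UMIs in all gate cells.

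Among mitochondrial proteins that come in several forms, the restricted form of a cytochrome c oxidase subunit differed between the classes far more than its common counterpart. Cox4i2, the hypoxia-inducible form of a cytochrome c oxidase subunit, was at 265 and 259 CPM in gate cells against 1.32 and 1.28 CPM in the reference (log2 change 7.65, SE 0.14, adjusted p = 4.16e-19). Its widely expressed counterpart Cox4i1 was at 1062 and 1010 CPM against 997 and 1024 CPM and did not pass (log2 change 0.05). Ndufa4, the paralogue of the gate gene Ndufa4l2, was at 46.6 and 41.5 CPM in gate cells without Pecam1 and Cdh5, 434 and 338 CPM in those with either, and 643 and 535 CPM in the reference. The fall of Ndufa4 over all gate cells was 0.72 on the log2 scale (SE 0.07, adjusted p = 6.70e-08). Of the 18 tested genes of this list 4 rose (Cox4i2, Higd1b, Cox7a1 and Cox8a) and 3 fell. Over all genes tested the shares were 13.1% and 11.0%. Besides Ndufa4 the genes that fell were Pgk1, of glycolysis, and Egln3, a hypoxia-induced prolyl hydroxylase (log2 changes -0.43 and -2.41).

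Imprinted genes moved in both directions, 7 higher and 4 lower of 17 tested (median log2 change 0.50). Over all genes tested 13.1% were higher and 11.0% lower. Meg3, the noncoding RNA expressed from the same imprinted domain as Dlk1, was at 2088 and 2213 CPM in gate cells against 10.7 and 4.68 CPM in the reference (log2 change 8.24, SE 0.17, adjusted p = 3.18e-18). Mirg, another noncoding RNA of that domain, held 27 and 35 UMIs in the gate and 0 UMIs in the reference, so it was at least 97.8-fold and 140-fold higher, with 3 UMIs per library as the floor of the reference. Ndn, the imprinted gene of necdin, was at 151 and 169 CPM against 29.8 and 26.4 CPM. Mest, also imprinted, was lower in gate cells (390 and 343 CPM against 542 and 622 CPM) and had 0 and 10.4 CPM in those without Pecam1 and Cdh5.

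**Figure D3:**
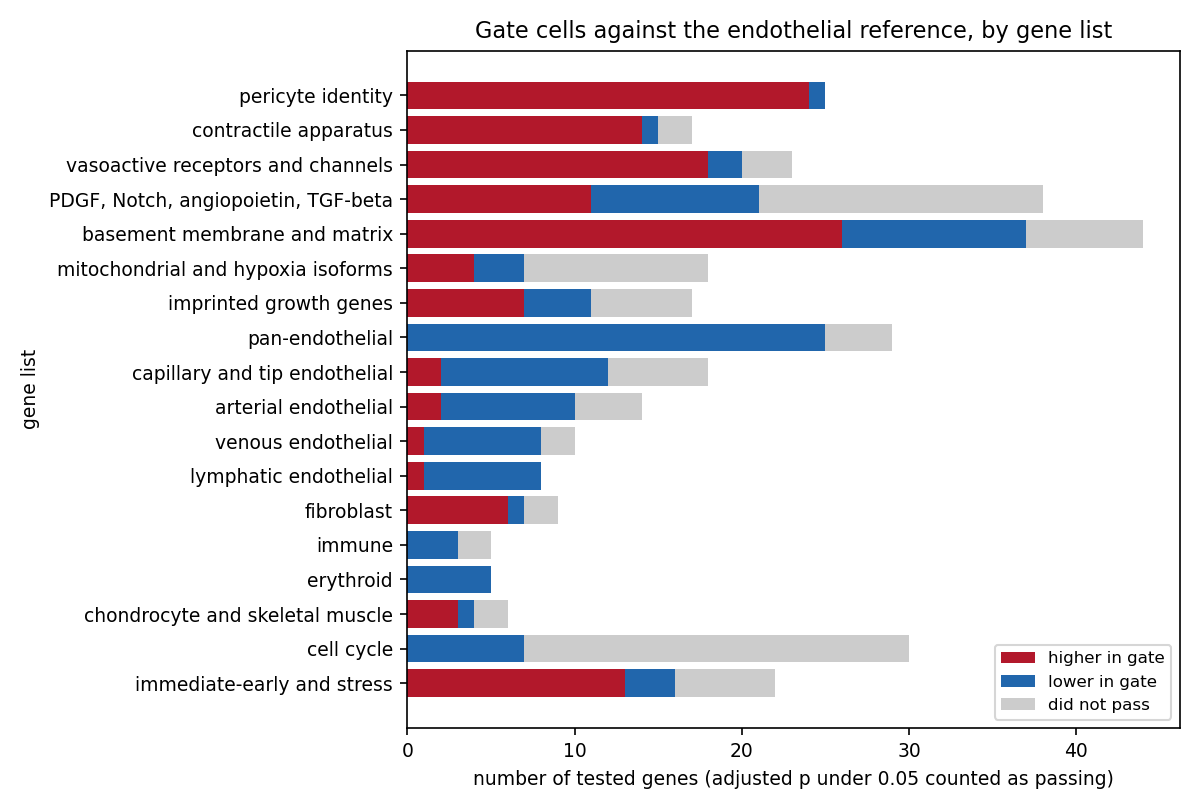
Number of tested genes of each list that were higher (red) or lower (blue) in gate cells than in endothelial reference cells at an adjusted p under 0.05, or did not pass (grey); lists with fewer than 5 tested genes are not drawn. Higher genes dominate the pericyte identity list (24 of 25) and lower genes the pan-endothelial list (25 of 29). Over all genes tested 13.1% were higher and 11.0% lower.

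Endothelial mRNA in the gate was then examined in the cells with and without Pecam1 or Cdh5. Over all gate cells, 25 of the 29 tested pan-endothelial genes fell and 0 rose (median log2 change -0.66), beside 11.0% and 13.1% of all genes tested. Cldn5, the tight-junction protein claudin-5, was at 639 and 600 CPM in gate cells against 1418 and 1434 CPM in the reference (log2 change -1.19, SE 0.05, adjusted p = 9.16e-13). This average joins 2 very different classes. In gate cells without Pecam1 and Cdh5, Cldn5 was at 0 and 5.19 CPM, 13 of the 30 listed genes had 0 UMIs (Pecam1 and Cdh5 among them by the split itself), and the summed level of the list was 420 and 685 CPM. In those with either gene, Cldn5 was at 689 and 673 CPM, none of the listed genes was at 0, and the sum, Pecam1 and Cdh5 included, was 9989 and 8867 CPM, against 14443 and 13001 CPM in the reference.

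The cells with Pecam1 or Cdh5 were also deeper. Their median was 13985 and 12966 UMIs per cell, compared with 6424 and 6019 UMIs in gate cells without either gene, a ratio of 2.18 and 2.15. Reference cells had medians of 8265.5 and 8893 UMIs. A deeper cell is likelier to hold a UMI of either gene, and the part of this in the difference was not tested. Detected genes followed depth, with medians of 4150 and 3934, 2527 and 2240, and 2966 and 2967 in the 3 classes. The mitochondrial share was close in all of them (5.26 to 6.81%). Most gate cells with endothelial UMIs held both genes rather than 1 of them: 72 of 75 and 94 of 105.

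**Figure D4:**
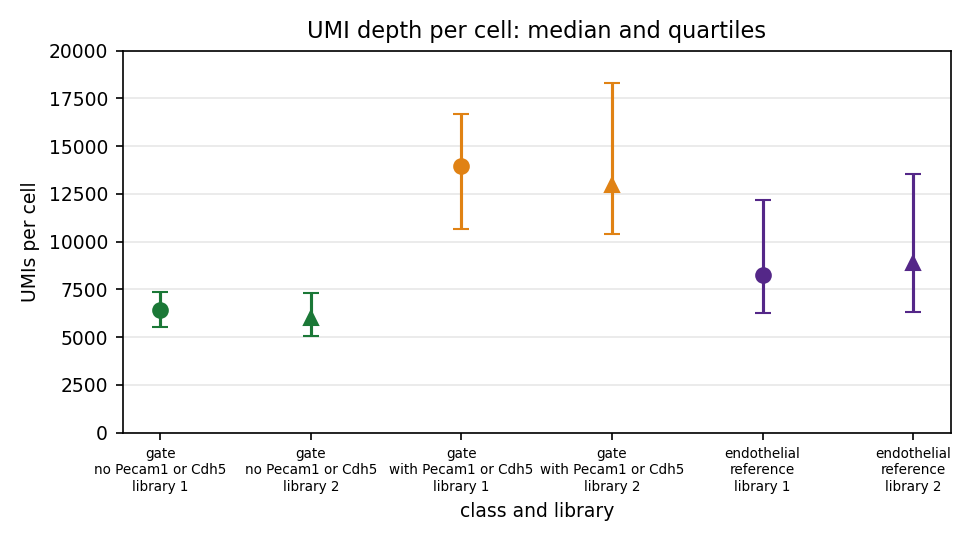
UMIs per cell by class and library; symbols are medians and bars run from the lower to the upper quartile, on a linear axis from 0. The medians of gate cells with Pecam1 or Cdh5 (13985 and 12966 UMIs) lie above those of the gate cells without (6424 and 6019) and of the reference (8265.5 and 8893).

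Levels relative to the total were then compared list by list. Over the pericyte identity genes with at least 20 UMIs in the gate cells without Pecam1 and Cdh5, the median ratio of the CPM of the cells with either gene to that of the cells without was 0.390 in library 1 (19 genes, all below 1) and 0.445 in library 2 (21 genes, all below 1). Over 28 pan-endothelial genes with at least 20 UMIs in the reference, the median ratio of their CPM to the reference was 0.661 and 0.721, with 25 and 27 genes below 1. Pecam1 and Cdh5 were left out of both ratios, the gate genes are among the pericyte genes, and the minimum was set on the class divided by, which favours genes that are high there. These ratios are a description with no test, and the part that depth plays in a choice by raw UMIs was not tested. Whether a barcode held 1 cell or more was not tested by a doublet caller.

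Sex-linked genes gave a count of barcodes with mRNA from animals of both sexes. Xist, expressed in females, and Y-linked genes were found together in 1 of 75 and 3 of 105 gate cells with Pecam1 or Cdh5 (1.33 and 2.86%), in 0 of 13 and 0 of 30 gate cells without, and in 14 of 1302 and 28 of 1989 reference cells (1.08 and 1.41%). Both libraries held both sexes: Xist alone was seen in 35 and 47 and Y-linked genes alone in 37 and 46 of the gate cells with Pecam1 or Cdh5. The interval for these gate cells ran up to 7.21 and 8.12%. It takes cells as independent and is wide, so it cannot compare the classes. Barcodes with cells of the same sex, or of the same animal, are not seen by this count.

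A gene named Tdtomato in the matrices is taken as the reporter of the sort. Tdtomato had 0 UMIs in the 43 gate cells without Pecam1 and Cdh5 (of 13 and 30), which allows a share of cells with a UMI of up to 6.98% with 3 counts and sets no limit on cells that express it. It was found in 28.0 and 38.1% of gate cells with either gene and in 38.0 and 39.6% of reference cells. After thinning to 3000 UMIs those shares were 10.7 and 13.5% and 15.1 and 16.6%. At the depth of the 43 cells a level of 35.0 and 15.6 CPM would have given 3 UMIs, and the reference stood at 54.5 CPM in both libraries, so the level was at least 1.56-fold and 3.50-fold lower. The reporter mRNA was not detectable in these cells at this depth, although the sort had selected for its protein.

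Gate cells without Pecam1 and Cdh5 were compared directly with those that had either. Of 7640 genes tested, 653 passed (8.55%), 217 higher (2.84%) and 436 lower (5.71%) in the cells without. In a fit of their own against the shared reference (5.85% of 11738 genes higher and 8.62% lower), the cells without had 23 of 25 pericyte identity genes higher and 28 of 28 pan-endothelial genes lower. Between the gate classes 17 of 24 pericyte identity genes were higher and 0 lower (median log2 change 1.18, beside -0.0448 over all genes), and 26 of 26 pan-endothelial genes were lower. The split was set by UMIs of Pecam1 and Cdh5, and the reference by at least 1 UMI of Cdh5. The falls of endothelial genes expressed together with these follow in part from that choice and are no independent result. Rgs5 was at 5524 and 3946 CPM in the cells without against 2709 and 2303 CPM in the cells with (log2 change 0.90, SE 0.14, adjusted p = 3.48e-05). Des was at 1049 and 940 CPM against 314 and 350 CPM (log2 change 1.57, SE 0.18, adjusted p = 2.80e-07). Neither Acta2 nor Myh11 passed. For Acta2 the libraries ran in opposite directions, with 559 against 777 CPM in library 1 and 1459 against 462 CPM in library 2 (adjusted p = 0.0911).

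The largest rises outside the lists were Tnfaip6, Hmox1, Mt1, C1ra and Rasd1. Mt1, a metal-binding metallothionein, was at 466 and 981 CPM in the cells without Pecam1 and Cdh5, at 170 and 245 CPM in those with either and at 3.50 and 9.12 CPM in the reference (log2 change between the gate classes 1.79, SE 0.20, adjusted p = 2.84e-07). Tnfaip6, a hyaluronan-binding protein gene, rested on library 2: 11.7 and 145 CPM against 10.9 and 34.5 CPM. Hmox1, haem oxygenase, was alike at 35.0 against 32.8 CPM in library 1 and at 156 against 29.4 CPM in library 2, where its 30 UMIs came from 6.67% of the 30 cells. The 5 largest falls, Rgcc, Ly6a, Kdr, Rbp7 and Icam2, all had 0 UMIs in the 43 cells. The split by Pecam1 and Cdh5 itself favours falls of genes expressed together with them. Kdr, the gene of VEGFR2, was at 321 and 333 CPM in the gate cells with Pecam1 or Cdh5, hence at least 9.19-fold and 21.4-fold above the 3-UMI floor of the cells without. Icam2, an endothelial adhesion molecule, was at least 8.38-fold and 14.3-fold above that floor.

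Lymphatic genes were low in the gate. Prox1, the transcription factor gene of lymphatic endothelium, had a UMI in 2.67 and 2.86% of gate cells with Pecam1 or Cdh5 and in 22.7 and 28.2% of reference cells (0 and 0% against 16.2 and 18.3% after thinning). Of the 8 lymphatic genes tested over all gate cells, 7 fell and 1, Thy1, rose, beside 11.0% and 13.1% of all genes tested. Thy1 is also a mesenchymal gene and stood at 326 and 337 CPM in gate cells without Pecam1 and Cdh5 and at 94.8 and 135 CPM in the reference. Reln, reelin, was at 1.69 and 3.41 CPM against 53.9 and 98.0 CPM (log2 change -4.87, SE 0.25, adjusted p = 6.39e-12). Ccl21a, a chemokine gene of lymphatic endothelium, was at 3.38 and 131 CPM against 1972 and 3532 CPM, and in library 2 it was found in 21.0% of gate cells with Pecam1 or Cdh5, against 5.33% in library 1. Among genes with an average log2 CPM of 5 or more, those with the largest falls, Dtx1 and Slc45a3, had 1 and 0 UMIs and 0 and 2 UMIs in the gate, against 840 and 1196 UMIs and 871 and 1353 UMIs in the reference.

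Capillary and arterial endothelial genes were also read in the gate cells with Pecam1 or Cdh5. Fabp4 and Gpihbp1, genes of lipid handling in capillaries, were at 8393 and 4822 CPM and at 1229 and 956 CPM, against 7279 and 4466 CPM and 1211 and 1169 CPM in the reference. Rgcc, a cell cycle regulator enriched in capillaries, was at 469 and 448 CPM against 449 and 505 CPM. Other members of the capillary and tip list went in both directions. Of its 18 genes, 9 in library 1 and 12 in library 2 were below the reference. Car4 was at 3.38 and 1.45 times the CPM of the reference, Angpt2 at 1.35 and 1.68 times, and Cd36 at 1.17 and 1.24 times. Among the lower members, Lrat was at 26.4 and 40.9 CPM against 89.9 and 83.5 CPM, and Col13a1 at 14.6 and 31.9 CPM against 38.9 and 52.3 CPM. Stmn2, from the arterial list, was at 95.6 and 81.1 CPM against 276 and 190 CPM. Gkn3, an arterial marker, had 0 UMIs in the gate and was at 31.1 and 13.0 CPM in the reference, at least 12.3-fold and 7.62-fold higher. Cxcl12, also from the arterial list, was higher in the gate cells with Pecam1 or Cdh5, at 1.72 and 2.12 times the CPM of the reference. Of 18 capillary and tip genes tested in these cells against the reference, 4 rose and 6 fell, beside 11.5% and 9.59% of all 12169 genes. Of 14 arterial genes 2 rose and 6 fell, and of 28 pan-endothelial genes 0 rose and 22 fell. No test compared these lists with each other.

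Genes of the cell cycle were not higher in the gate: 0 of 30 rose and 7 fell, beside 13.1% and 11.0% of all genes tested. After thinning, Mki67 or Top2a UMIs were found in 12.0 and 14.4% of gate cells with Pecam1 or Cdh5, in 23.1 and 14.3% of those without, and in 12.6 and 16.0% of reference cells. The intervals for the cells without were wide (5.04 to 53.8% and 4.03 to 32.7%). They take cells as independent and cannot compare the classes, so the shares are a description with no test. Immediate-early and stress genes, which respond to tissue dissociation, were higher in 13 and lower in 3 of 22, against the same shares. Egr1 was at 910 and 1170 CPM in the gate against 561 and 601 CPM in the reference (log2 change 0.84, SE 0.06, adjusted p = 2.45e-09), and the flow-responsive gene Klf2 was lower (691 and 782 against 1439 and 1328 CPM). Fos was at 2241 and 3354 CPM against 1727 and 1726 CPM. Whether dissociation has a part in the other differences was not tested.

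Surface proteins were read through 7 antibody tags, 15 bases each, in the orientation of the deposited tag names, and the sequences identify the readout.
ICAM1: ATAACCGACACAGTG
VCAM1: CGTTCCTACCTACCT
CXCR4: GTCGTGGTGTTGTTC
VEGFR2: ATAAGAGCCCACCAT
CD45: TGGCTATGGAGCAGA
Rat IgG2a isotype: AAGTCAGGTTCGTTT
Rat IgG2b isotype: GATTCTTGACGACCT
ICAM1 and VCAM1 are adhesion molecules of activated endothelium, CXCR4 is the receptor of CXCL12, VEGFR2 is the main receptor of VEGF-A, CD45 marks leukocytes, and the rat antibodies of no target give the background. Each tag library lists 3000 barcodes, which include 74 of 75 and 100 of 105 gate cells with Pecam1 or Cdh5 but only 7 of 13 and 11 of 30 of those without. The tag values of the latter rest on these few cells.

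VEGFR2 tags averaged 0.286 and 0.364 counts per cell in gate cells without Pecam1 and Cdh5, 4.39 and 4.67 in those with either, and 3.23 and 4.01 in the reference. ICAM1 tags averaged 5.29 and 23.6, 135 and 152, and 130 and 150 counts in the same order. CXCR4 tags averaged 5.29 and 3.36, 31.3 and 23.0, and 19.3 and 18.2 counts. The cells without endothelial UMIs carried fewer tags in general, with a median of 13 and 24 tags per cell against 127.5 and 143 in the other gate cells. For these 3 proteins both of their libraries lay below both libraries of the other classes, by a factor of 0.0392 and 0.156 for ICAM1 and 0.0651 and 0.0779 for VEGFR2 relative to the other gate cells. The exact two-sided permutation test over 4 library means cannot go below p = 0.33, the value it gave for each of the 3. The same held for VCAM1 and CD45. Between the gate classes it also held for the IgG2a isotype, at 0.0961 and 0.405 times the other gate cells. Tags matched to no antibody fell as well (0.0646 and 0.188 times). A lower tag count was thus not particular to the antibodies of these proteins. As a share of all tags matched to an antibody, ICAM1 was at 39.8 and 74.9% in the cells without against 75.8 and 79.6% in the other gate cells. CXCR4 was at 39.8 and 10.7% against 17.6 and 12.1%, and VEGFR2 at 2.15 and 1.15% against 2.47 and 2.45%. The isotype tags gave 0.143 and 1.18 (IgG2a) and 0.143 and 0.818 counts (IgG2b) in the cells without, so their VEGFR2 value was at or under the background in library 2.

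VCAM1 tags were low everywhere, at 1.57 and 1.09 counts in gate cells without Pecam1 and Cdh5, 2.39 and 2.68 in those with either and 2.18 and 2.22 in the reference. CD45 tags averaged 0.571 and 1.09, 3.04 and 5.11, and 5.92 and 4.11 counts. Gate cells with Pecam1 or Cdh5 carried 1.63 and 1.26 times the CXCR4 tags of the reference, and their depth in mRNA and their IgG2a tags (1.28 and 1.52 times) were higher as well. The corresponding mRNA, Cxcr4, was at 14.6 and 20.4 CPM in these cells against 13.5 and 12.4 CPM in the reference and did not pass (adjusted p = 0.370 over all gate cells). Kdr mRNA was at 321 and 333 CPM in the gate cells with Pecam1 or Cdh5, against 447 and 484 CPM in the reference. Icam1 mRNA was at 259 and 642 CPM against 351 and 972 CPM. The VEGFR2 and ICAM1 tags of these cells were not below those of the reference. Tags are counts per cell, whereas CPM are relative to the UMIs of a class, so the measures are on unlike scales. The median depth of these cells was 1.69 and 1.46 times that of the reference.

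**Figure D5:**
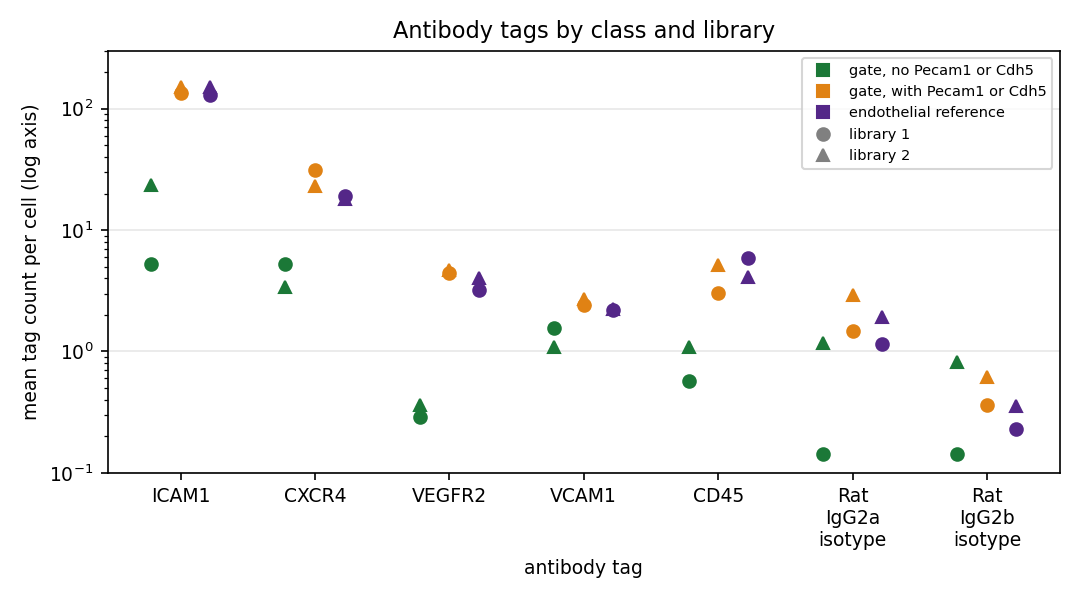
Mean tag counts per cell (log axis) for 7 antibody tags in gate cells without Pecam1 and Cdh5 (green; 7 and 11 cells), gate cells with either (orange) and the endothelial reference (purple); circles are library 1, triangles library 2. For ICAM1, CXCR4, VEGFR2, VCAM1 and CD45 both green symbols lie below all others. For the IgG2a isotype they lie below both orange symbols.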

How the data were processed

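Single-cell mRNA and antibody tag libraries of 2 biological replicates were used. As deposited, the mRNA values are raw UMI counts of 31054 features in each barcode. The submitters' processing notes list Cell Ranger and Seurat 3.0.2 without saying what each did, and 3.0.2 is also the software version in the header of the matrices. Aligner settings and how barcodes were chosen before deposit are not stated. The deposited tag files hold tag counts per barcode, and whether these are UMIs or reads is not given. Tags were joined to the mRNA library of the same replicate number by barcode.

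Barcodes with at least 500 genes and at most 10% mitochondrial UMIs were kept. Sums of UMIs by class in each library entered edgeR 4.0.16, run in R 4.3.3 (TMM scaling, filter on low counts by class, quasi-likelihood test, Benjamini-Hochberg adjustment over all genes tested, threshold 0.05). The library was a block, since both classes come from the same animals, which leaves 1 residual degree of freedom; over 12257 genes the differences between libraries correlated between the classes (r = 0.293). CPM are unscaled UMIs per 1e+06. The 3 gate genes and Cdh5 were not tested, nor was Pecam1 between the gate classes. Levels of 1 gene against another are not compared per length, as 3' counts carry none. Floors are 3 UMIs per library, and intervals cover counting error only.

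The members, the 21 gene lists and the tests were chosen with earlier results of these data known. Named genes were the markers, the genes of the tagged proteins, the 15 largest rises and 10 largest falls (average log2 CPM no lower than 5, same sign in each library), and up to 4 genes per list with the smallest adjusted p; for the gate classes, the 5 largest in each direction. Of the genes this rule names, 1 is not reported here. Other genes given are members of the lists, picked after their values were seen. On simulated counts with 200 changed genes, 63% of genes changed 2-fold and 93% of those changed 4-fold were found in the comparison of gate and reference, with 4.29% false calls. Between the gate classes 34% and 93% were found, with 3.05% false calls. The simulated counts had the same mean share per gene in all sums, a fixed spread and no difference between libraries. Only genes above a minimum expected count were changed, so these rates need not hold for the real counts. Alternatives used DESeq2 1.42.0, other gates and cell filters, thinning, a reference matched in depth, and leaving out cells with both Xist and Y-linked UMIs.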

Additional observations from a re-analysis of the deposited data

How the results depend on the processing

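The gate share (5.93% as the mean of both libraries) was 6.23% with a sum of at least 3 UMIs, 5.31% with 10, 6.09% with Kcnj8 and Ndufa4l2 alone, 3.72% with at least 1000 genes and at most 5% mitochondrial UMIs, 5.14% with no cell filter, and 5.87 to 6.00% without a replicate. The number of genes that passed between gate and reference fell from 2956 to 890 under the stricter cell filter (27 and 17 gate cells), to 1581 with thinned cells, to 1699 with gate cells without Pecam1 and Cdh5 only, to 1217 with DESeq2 and to 1607 with no replicate block for the library. Between the gate classes 653 genes became 124 with DESeq2 and 328 with thinned cells, an alternative added after seeing the data. Of 91 named genes with a test, 86 passed; of 1251 alternative values 1188 kept direction and side of the threshold, 56 lost the call, 1 gained it and 6 changed sign. These 6 belonged to Cxcr4 (-0.26 thinned, -9.78 in gate cells without Pecam1 and Cdh5, where it had 0 UMIs), Krt15 (0.38 thinned, 2.20 in gate cells without Pecam1 and Cdh5, 2.83 without replicate 1 and -5.10 without replicate 2) and Cdc20 (0.020 without replicate 2 and -1.06 without replicate 1), and of these 3 genes only Cdc20 had passed. Log2 ratios of tags changed sign for ICAM1 (0.036 with Pecam1 or Cdh5), VCAM1 (-0.11 with the gate at 10), CXCR4 (-0.12 under the stricter filter) and CD45 (0.20 without replicate 1 and -1.07 without replicate 2), and in gate cells without Pecam1 and Cdh5 for VCAM1 (-0.75), CXCR4 (-2.15), VEGFR2 (-3.48) and the IgG2a isotype (-1.86). The cause was not tested. Counts of genes were not recomputed without a replicate, since 1 library in each class leaves no test. With 13 and 30 cells, depth limits what can be said of the gate cells without endothelial UMIs, and at 1 residual degree of freedom the spread is estimated across genes.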
